A study of Mus musculus with 6 samples.

Results

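The 5 genes described here, H2-Aa, H2-Ab1, H2-Eb1, Cd74 and H2-DMa, encode parts of the MHC class II antigen presentation machinery and were taken by symbol from the 12436 genes of a single-cell RNA-seq series of mouse tibialis anterior muscle (TAM). All 5 were found, and all 5 had UMIs (unique molecular identifiers, each standing for 1 captured transcript) in every library. H2-Aa encodes the alpha chain and H2-Ab1 the beta chain of the I-A molecule, and H2-Eb1 encodes the beta chain of the I-E molecule. Cd74 encodes the invariant chain, which blocks the groove of new class II molecules and guides them to endosomes. H2-DMa encodes a chain of the H2-DM complex, which exchanges the last invariant chain fragment for an antigenic peptide. On mm39 the 4 H2 genes lie together on chromosome 17, H2-DMa at 34338515 to 34358076, H2-Ab1 at 34476663 to 34488394, H2-Aa at 34501718 to 34506798 and H2-Eb1 at 34524841 to 34535649, while Cd74 lies on chromosome 18 at 60936920 to 60945725.

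Class II molecules show peptides from engulfed or internalized protein to CD4+ T cells. In resting tissue they are carried mainly by B cells, dendritic cells and some macrophages, and the coactivator CIITA is needed for their transcription. Injured muscle is entered by monocytes that become macrophages, first clearing debris and later accompanying fiber growth, so the carrier cells can differ with the day after injury.

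The series compared hypothyroid with control male mice, to ask how low thyroid hormone alters the cells of regenerating muscle. Mice of all groups carried the Fucci2aR cell cycle reporter in the Gt(ROSA)26Sor locus on a B6;129 background. They came from a cross with Pax7-Cre mice, and those used for sequencing were negative for Cre. All were 3 to 5 months old when their diets started. The hypothyroid groups ate an iodine-deficient diet with 0.15% propylthiouracil (PTU), which blocks thyroid hormone synthesis, and the control groups ate a matched diet without it. The right TAM was uninjured or was taken 5 or 14 days post injury (dpi) with cardiotoxin at 50 µg/ml. Each of the 6 combinations of diet and day is 1 library in which cells of several mice were pooled, so no spread between animals can be had and no test between conditions was possible. Day also stands in the batch label, so day and batch cannot be told apart. Every interval below is a 95% interval that covers counting error alone, and a ratio is named higher or lower only where it passed 2-fold with an interval that left out 1.

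Each deposited table holds 1 to 3 runs of columns, and only the first run of each was read here as its library. These first runs held 1152, 2428 and 3294 cells in control muscle, uninjured, at 5 dpi and at 14 dpi. In hypothyroid muscle they held 528, 2155 and 1650 cells. They took in 11207 of the 20269 columns, with 2283954 to 23497545 UMIs per library. Cells of the deposited tables recur between conditions. Of the control 5 dpi cells, 528 stand with the same values among the later columns of the hypothyroid uninjured table, and 1152 of the hypothyroid 14 dpi cells stand among those of the control uninjured table. These cells stand under both labels, so levels, shares and ratios that rest on them are given without them where they change most. Cells were assigned to a type from marker genes, none of them a class II gene, and are called by that type with the ending "-like". FAP-like cells (fibro-adipogenic progenitors, the connective tissue progenitors of muscle) were the most numerous with 4261 cells, followed by 1271 endothelial-like, 871 macrophage-like, 703 T-like and 643 NK-like cells. Monocyte-like cells numbered 254, conventional dendritic-like and B-like cells 174 each, and myocyte-like cells, which carried the fiber genes Myh4, Ckm and Acta1 of the labelled tissue, numbered 247. In 1535 cells no list passed the gate, and 185 cells were mixed. Macrophage-like cells made up 8.43% of hypothyroid 14 dpi cells without the recurring ones, 8.61% with them, and 0% of uninjured control cells. NK-like cells made up 19.95% of control 5 dpi cells without the recurring ones, 21.2% with them, and 0.758% of uninjured hypothyroid cells. In these shares the recurring cells were thus like the injured and unlike the uninjured libraries.

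Many class II genes have a promoter layout in common, an X box followed by a Y box, on which the transcription complex that recruits CIITA assembles. The promoters of RefSeq on GRCm38.p6, from 250 bases before to 50 bases after a gene's start, were searched on both strands for the X box core GCAAC and the Y box core TGATTGG, which do not overlap each other. GCAAC stood in 35.2% and TGATTGG in 7.82% of 32851 promoters, whereas GCAAC followed by TGATTGG with 15 to 35 bases between them stood in 67 promoters or 0.204%. The pair stood in the promoters of H2-Aa (chr17:34287774-34288073, minus strand) and H2-Eb1 (chr17:34305617-34305916, plus strand). It also stood in those of H2-Oa (chr17:34092129-34092428, plus strand) and H2-Ob (chr17:34238655-34238954, plus strand), which encode the chains of the H2-DM inhibitor H2-O, and in that of the chain gene H2-Eb2. The promoters of H2-DMb1 and H2-DMb2, which encode H2-DM beta chains, held TGATTGG but not GCAAC, and so no pair. The stretches of 4 promoters that have the pair in common are shown, without that of H2-Eb2, with both cores in capitals:
H2-Aa: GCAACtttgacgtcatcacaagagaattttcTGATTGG
H2-Eb1: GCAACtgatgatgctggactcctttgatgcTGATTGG
H2-Oa: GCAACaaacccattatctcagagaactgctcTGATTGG
H2-Ob: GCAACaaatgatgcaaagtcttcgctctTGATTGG

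The cores were 26 bases apart in H2-Aa and H2-Oa, 25 in H2-Eb1 and 23 in H2-Ob, and the X box core began 81, 76, 91 and 87 bases before the start in these genes. In H2-Eb2 the cores were 25 bases apart, and the X box core of the pair began 132 bases before the start. Neither of the 2 promoter entries of H2-DMa held the pair in these letters, which says nothing about the factors that bind there. H2-Ab1 and Cd74 had no entry. A match of letters is a description of the sequence and was not tied to any value below.

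Over all cells of a library, the summed level of the 5 genes was 497, 5216 and 1386 CPM (the UMIs of a gene scaled to a fixed total of the UMIs in the pooled cells) in control muscle, uninjured, at 5 dpi and at 14 dpi. In hypothyroid muscle it was 1292, 3366 and 3424 CPM. The level was thus highest at 5 dpi in control muscle and stood about equally high at 5 and 14 dpi in hypothyroid muscle. These whole-library levels move with how many cells of each type were captured as well as with the level per cell, and both cannot be told apart in them. Between diets, the ratio of hypothyroid over control was 2.60 (2.47 to 2.73) in uninjured muscle, 0.645 (0.639 to 0.652) at 5 dpi and 2.47 (2.43 to 2.51) at 14 dpi. At 14 dpi all 5 genes were higher in the hypothyroid library, from 2.40 for Cd74 and H2-Ab1 to 3.33 for H2-DMa, where 4.2% of 12284 genes were higher. In uninjured muscle 4 of 5 were higher, from 2.35 for H2-Eb1 to 3.22 for H2-Ab1, against 4.03% of 11352 genes, and H2-DMa had a ratio of 1.32 (0.80 to 2.14). At 5 dpi H2-Aa alone was lower, with 0.490 (0.480 to 0.50), where 19.4% of 12358 genes were lower. The uninjured difference rested on few cells, since 5 cells held 57.8% of the class II UMIs of the hypothyroid library, and without the top 5 cells of each library the ratio was 1.56. With all columns of the tables read, the ratio was 1.46 between the uninjured tables. The columns then added to these tables all stand in the first run of an injured table too. The ratio was then 0.943 at 5 dpi and 1.48 at 14 dpi, so neither of the 2-fold differences remained. Without the cells of a second table the ratio was 0.630 at 5 dpi and 2.38 at 14 dpi, where all 5 genes were again higher, from 2.28 for Cd74 to 4.13 for H2-DMa.

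The types that carried these UMIs differed between the libraries. In uninjured control muscle, B-like cells held 84.8% (83.5% to 86.1%) of the class II UMIs while making up 3.04% of the cells. In uninjured hypothyroid muscle, they held 48.4% (46.6% to 50.2%), mixed cells 25.1% and 5 monocyte-like cells 16.6%. There H2-Aa was found in 1 of the 7 mixed cells and in 1 of the 5 monocyte-like cells. With all columns of the tables read, the B-like shares were 7.88% and 8.18%. The columns then added are the 1152 and 528 cells that stand in the first runs of the hypothyroid 14 dpi and control 5 dpi tables. These shares therefore cannot be read as those of uninjured muscle alone. No macrophage-like cell was found in either uninjured library, 0 of 1152 and 0 of 528 cells, which allows shares of up to 0.260% and 0.568%, taken as 3 cells of the total.

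At 5 dpi the UMIs were spread over several types. In control muscle, conventional dendritic-like cells held 30.6%, monocyte-like cells 21.8%, cells of no type 22.0% and macrophage-like cells 4.75%. In hypothyroid muscle at the same day, macrophage-like cells held 31.9% (31.6% to 32.3%), conventional dendritic-like cells 22.4%, cells of no type 18.3% and monocyte-like cells 15.1%. The macrophage-like share of UMIs went with a macrophage-like share of cells of 4.12% (3.36% to 4.99%) in the control and 25.4% (23.6% to 27.3%) in the hypothyroid library.

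At 14 dpi macrophage-like cells were the main carrier under both diets. They held 52.1% (51.4% to 52.7%) of the class II UMIs in control and 88.2% (87.9% to 88.5%) in hypothyroid muscle, and made up 2.49% (1.98% to 3.08%) and 8.61% (7.30% to 10.1%) of the cells. Without the cells that recur in a second table the hypothyroid share of UMIs was 95.2%. The higher whole-library level at 14 dpi thus stood beside a larger macrophage-like share of cells, whereas the level within macrophage-like cells, given below, was not higher.

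**Figure D1:**
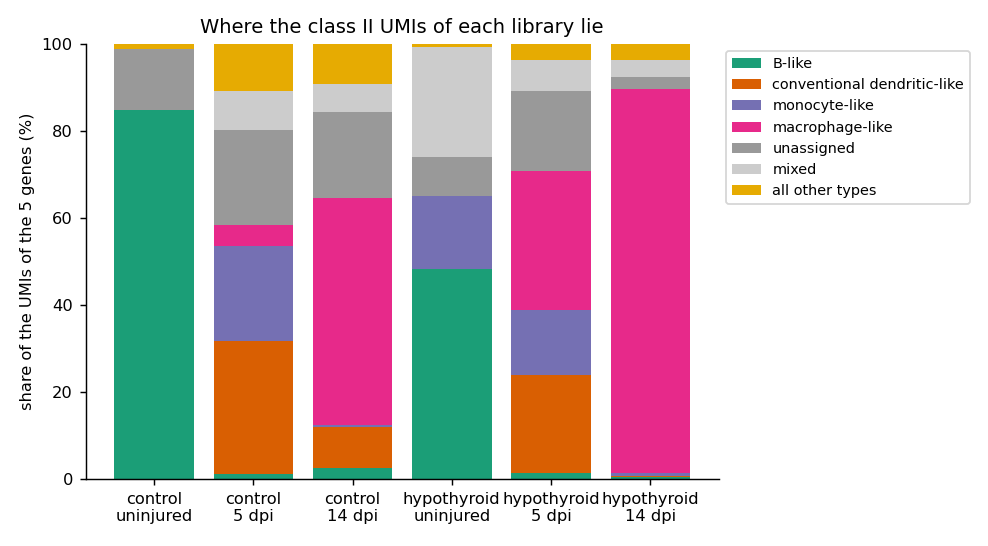
Share of the UMIs of the 5 class II genes (y axis, percent) that lay in each gated cell type, one bar for each library. B-like cells hold the largest share in both uninjured libraries (84.8% and 48.4%) and macrophage-like cells in both 14 dpi libraries (52.1% and 88.2%), with several types sharing the UMIs at 5 dpi.

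Among the pools of at least 20 cells, conventional dendritic-like cells at 5 dpi had the highest level, with 38264 (37787 to 38745) CPM in 113 control and 45908 (45234 to 46588) CPM in 51 hypothyroid cells. Macrophage-like cells at 14 dpi followed with 36414 (35762 to 37074) CPM in 82 control cells and 30791 (30489 to 31096) CPM in 142 hypothyroid cells. Neighbours in this order differed beyond counting error, but with 1 library each no spread between animals stands beside it.

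Monocyte-like cells at 5 dpi stood next, with 18948 CPM over the 175 cells of the control library and 26891 CPM over the 67 of the hypothyroid library. B-like cells had 23053 CPM in uninjured control muscle and 12432 and 17422 CPM at 5 dpi in control and hypothyroid muscle. Macrophage-like cells at 5 dpi (5402 and 4883 CPM) and the 30 plasmacytoid dendritic-like cells of the control 5 dpi library (5041 CPM, 4671 to 5433) were far below these. The interval of the plasmacytoid pool overlapped those of both macrophage-like pools (5232 to 5576 and 4823 to 4943).

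Each other named type stood at 2362 CPM or less, with its class II UMIs mainly in few cells in most pools, as described further on. That highest level was of 35 neutrophil-like cells in control muscle at 5 dpi, and was 318 CPM in 27 cells without those that recur in a second table.

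**Figure D2:**
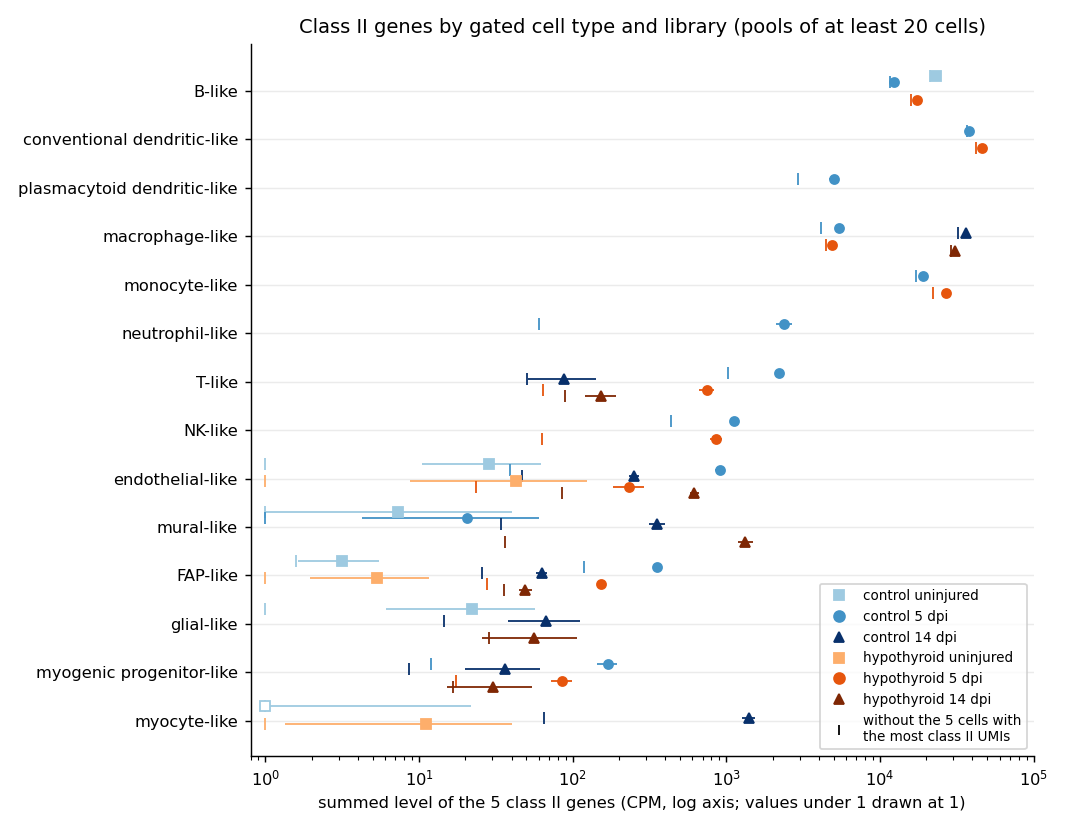
Summed level of the 5 class II genes (x axis, CPM on a log scale) in each gated type, with 1 symbol for each library of at least 20 cells, horizontal lines for the 95% counting interval, and a vertical tick for the level without the 5 cells with the most class II UMIs. The ticks stay beside the symbols in B-like, conventional dendritic-like, macrophage-like and monocyte-like cells, and fall far to the left of them in most pools of the other types.

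Macrophage-like cells carried more of every class II gene at 14 dpi than at 5 dpi, under both diets. The I-A alpha chain gene H2-Aa was at 1374 CPM at 5 dpi and 7908 CPM at 14 dpi in control muscle, and at 1045 and 6711 CPM in hypothyroid muscle. The I-A beta chain gene H2-Ab1 went from 704 to 5668 CPM and from 763 to 4997 CPM. The I-E beta chain gene H2-Eb1 went from 1043 to 6315 CPM and from 866 to 5455 CPM. For each of these chains both 14 dpi libraries were above both 5 dpi libraries, and no intervals overlapped between days.

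The invariant chain gene Cd74 was the most abundant of the 5 by 3' UMI count, with 2171 CPM at 5 dpi and 16294 CPM at 14 dpi in control and with 2127 and 13342 CPM in hypothyroid macrophage-like cells. H2-DMa was the least abundant and moved least, from 112 (88.4 to 139) to 230 (181 to 288) CPM under the control diet and from 82.4 (74.7 to 90.6) to 287 (258 to 318) CPM under the hypothyroid diet. The loading gene thus followed the same order of days as the chains with a smaller step.

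The ratio of 14 over 5 dpi for the 5 genes summed was 6.74 (6.50 to 6.99) in control and 6.31 (6.21 to 6.41) in hypothyroid muscle. All 5 genes were higher past 2-fold under both diets, where 8.96% of 5456 genes in control and 8.97% of 9719 genes in hypothyroid macrophage-like cells were higher. The ratios in control cells ran from 2.06 (1.48 to 2.86) for H2-DMa to 8.05 (7.29 to 8.91) for H2-Ab1. In hypothyroid cells they ran from 3.48 (3.02 to 4.01) for H2-DMa to 6.55 (6.30 to 6.82) for H2-Ab1. The median ratio over all genes was 0.929 and 1.10. The H2-DMa step in control cells stood at the edge of the 2-fold rule.

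These steps depend on which columns of the tables are read. Taking every column of the tables in place of the first run of columns, the macrophage-like level in control muscle was 14656 CPM at 5 dpi and 35129 CPM at 14 dpi, and the step 2.40. Without the cells that recur in a second table, the hypothyroid 14 dpi level was 28776 CPM in 42 cells and the control 5 dpi level 5544 CPM in 77 cells, and the steps were 6.57 in control and 5.89 in hypothyroid muscle. H2-DMa in control cells then had 1.98 (1.39 to 2.82) and no longer passed 2-fold. The macrophage marker list itself summed to 22803 CPM at 5 dpi and 27431 CPM at 14 dpi in control and to 31864 and 35468 CPM in hypothyroid macrophage-like cells, with all 9 genes detected in each pool. The conventional dendritic list summed to 42.4 to 126 CPM in these pools, with 0 to 7 of its 11 genes at 0. In the control 14 dpi pool the myocyte list, whose genes mark fibers, stood at 14308 CPM against 198 to 2873 CPM in the other 3 pools. Its part in the result was not tested.

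**Figure D3:**
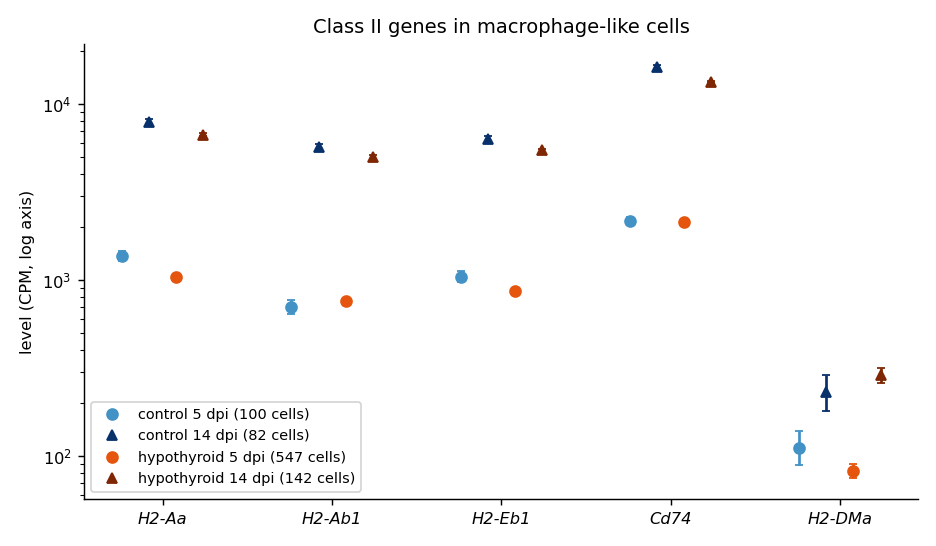
Level of each class II gene (y axis, CPM on a log scale) in macrophage-like cells of the 4 injured libraries, with 95% counting intervals. For each gene both 14 dpi symbols stand above both 5 dpi symbols, by the least for H2-DMa (112 to 230 CPM in control muscle).

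The step between days was seen across most macrophage-like cells and did not come from a few. The median summed level per cell was 1542 CPM at 5 dpi and 39804 CPM at 14 dpi in control muscle, and 912 and 26914 CPM in hypothyroid muscle. Cells at or above 10000 CPM made up 31.0% (22.1% to 41.0%) at 5 dpi and 80.5% (70.3% to 88.4%) at 14 dpi in control, and 24.7% (21.1% to 28.5%) and 77.5% (69.7% to 84.0%) in hypothyroid muscle. At 5 dpi 25% of control and 19.0% of hypothyroid macrophage-like cells had no class II UMI, against 2.44% and 0.704% at 14 dpi. At 5 dpi the cells therefore spanned the whole range from none to the level of dendritic-like cells, while at 14 dpi most stood near the top of it. Without the cells of a second table, the median was 1801 CPM in control cells at 5 dpi and 21698 CPM in hypothyroid cells at 14 dpi, with 32.5% (22.2% to 44.1%) and 69.0% (52.9% to 82.4%) of cells at or above 10000 CPM.

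Depth per cell did not follow this order, with a median of 5787 and 6807 UMIs at 5 dpi and 3850 and 6923 UMIs at 14 dpi in control and hypothyroid macrophage-like cells. After thinning each cell to 1000 UMIs, Cd74 was found in 52.1% (41.6% to 62.5%) of 94 control and 48.7% (44.3% to 53.0%) of 520 hypothyroid cells at 5 dpi. At 14 dpi it was found in 90.5% (81.5% to 96.1%) of 74 and 97.1% (92.6% to 99.2%) of 136 cells. Unthinned, the shares were 62.0% and 66.9% at 5 dpi and 97.6% and 99.3% at 14 dpi. Without the cells of a second table, the thinned shares were 50% of 72 control cells at 5 dpi and 97.6% of 41 hypothyroid cells at 14 dpi. Myogenic progenitor-like cells stand here for free RNA. The paper, however, reports raised class II chain genes in a proliferating myogenic cluster of hypothyroid muscle at 5 dpi. Over all progenitor-like cells at 5 dpi, hypothyroid over control was 0.185 (0.094 to 0.345) for H2-Aa. It was 0.481 (0.260 to 0.883) for H2-Ab1 and 0.474 (0.282 to 0.791) for H2-Eb1, on 14 to 43 UMIs a pool. Cd74 had 0.671 (0.485 to 0.932), and H2-DMa had 3.41 on 6 and 1 UMIs. Whether the progenitor-like cells gated here include cells of that cluster was not tested. In the same 4 libraries a Cd74 UMI was found after thinning in 0% to 2.53% of myogenic progenitor-like cells, on 36 to 111 cells. Their median depths were 5031 to 13357 UMIs before thinning. In FAP-like cells, which may themselves carry Cd74 after injury, the share was 1.49% to 2.86%.

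**Figure D4:**
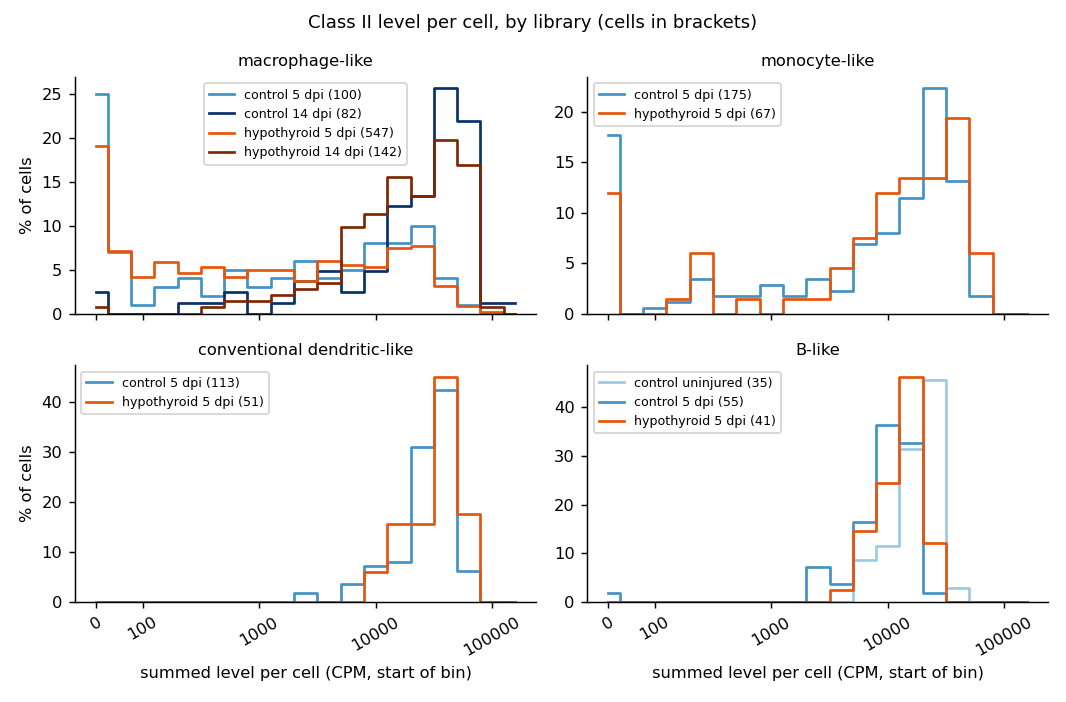
Share of cells (y axis, percent) in bins of the summed class II level per cell (x axis, CPM, log-spaced bins after a bin for 0) in 4 gated types, 1 line for each library. Macrophage-like cells spread over the whole axis at 5 dpi, with 25% and 19.0% of cells at 0, and gather at the right at 14 dpi, whereas conventional dendritic-like and B-like cells have single peaks and monocyte-like cells have a peak at the right beside a share at 0.

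Between diets, class II levels within the carrier types were close at the same day. In macrophage-like cells the summed ratio of hypothyroid over control was 0.904 (0.874 to 0.935) at 5 dpi and 0.846 (0.828 to 0.863) at 14 dpi. None of the 5 genes passed 2-fold on either day, where 4.74% of 9438 genes were higher and 8.74% lower at 5 dpi, and 5.33% of 6641 genes were higher and 4.77% lower at 14 dpi. The single genes had ratios of 0.738 (H2-DMa, 0.579 to 0.95) to 1.08 (H2-Ab1, 0.987 to 1.19) at 5 dpi. At 14 dpi they had ratios of 0.819 (Cd74, 0.794 to 0.845) to 1.25 (H2-DMa, 0.971 to 1.62). With all columns of the tables read, the ratio at 5 dpi was 0.350.

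In conventional dendritic-like cells at 5 dpi the summed ratio was 1.20 (1.18 to 1.22). H2-Aa stood at 0.830 (0.798 to 0.863) and H2-Ab1 at 1.5 (1.42 to 1.57), so the alpha and beta chains of the same molecule lay on opposite sides of 1, and none of the 5 passed 2-fold where 3.85% of 4749 genes were higher and 17.2% lower. In monocyte-like cells the summed ratio was 1.42 (1.39 to 1.45), with H2-Aa lowest at 1.11 (1.06 to 1.17) and H2-Ab1 highest at 1.63 (1.53 to 1.72), and again none passed, where 4.63% of 6137 genes were higher and 12.5% lower. In B-like cells it was 1.40 (1.29 to 1.53), with H2-Aa at 0.959 (0.793 to 1.16) and H2-Ab1 at 1.80 (1.36 to 2.38), and none passed, where 6.98% of 1333 genes were higher and 12.2% lower. In all 4 of these carrier types at 5 dpi, H2-Ab1 thus had a larger ratio than H2-Aa.

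**Figure D5:**
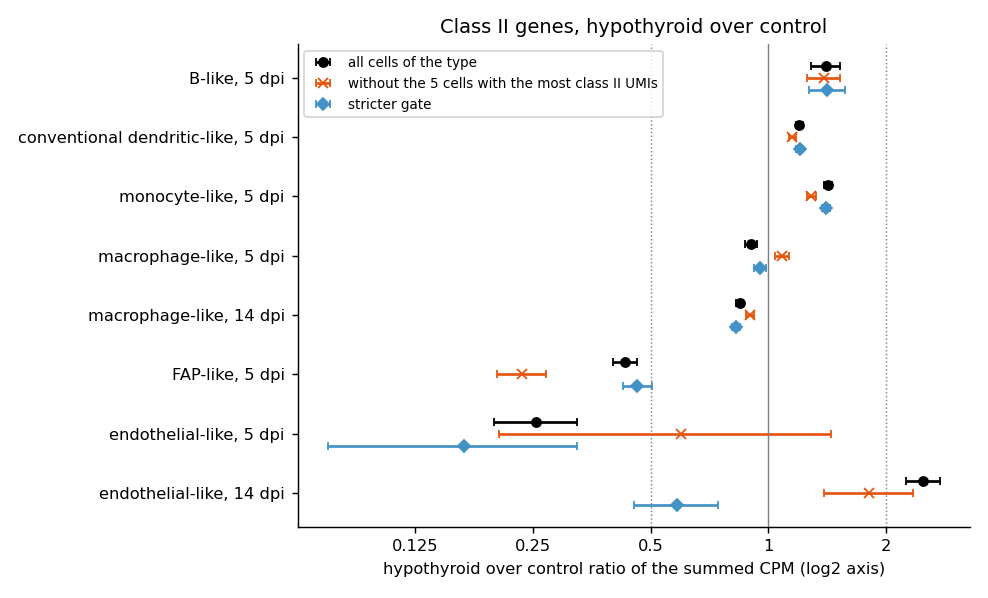
Ratio of hypothyroid over control of the summed class II CPM (x axis, log2 scale, dotted lines at 2-fold) for each type and day with enough cells in both libraries and a named result, for all cells of the type, without the 5 cells with the most class II UMIs in each pool, and under a stricter gate, with 95% counting intervals. The B-like, dendritic-like, monocyte-like and macrophage-like ratios stay within 2-fold under all 3, and the endothelial-like ratios do not keep their place.

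B-like cells held more of the class II UMIs of uninjured muscle than any other type, and their level per cell in the control library was narrow. The tenth, middle and ninetieth percentiles of the summed level were 14728, 25065 and 34285 CPM over 35 control cells, and 91.4% (76.9% to 98.2%) of them were at or above 10000 CPM. The 19 hypothyroid uninjured cells, under the minimum for a comparison, had 24603 CPM. At 5 dpi 55 control B-like cells had 12432 CPM, a ratio of 0.539 (0.501 to 0.581) over uninjured muscle that did not pass 2-fold. H2-Ab1, from 2791 to 1095 CPM, and H2-DMa, from 230 to 87.1 CPM on 7 UMIs, were lower past 2-fold with ratios of 0.392 (0.306 to 0.499) and 0.378 (0.138 to 0.900), where 5.49% of 1729 genes were lower and 12.9% higher. H2-Aa had the ratio nearest to 1, with 0.734 (0.627 to 0.857). Median depth in these cells was 2966 UMIs in uninjured and 1301 UMIs at 5 dpi.

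The share of each gene among the class II UMIs differed between types. Cd74 made up 49.9% to 56.5% of them in the 6 B-like pools, and 32.9% to 45.5% in the conventional dendritic-like and macrophage-like pools of more than 1 cell. In conventional dendritic-like cells of control muscle at 5 dpi, H2-Aa made up 30.7%, H2-Ab1 13.1% and H2-Eb1 23.0%. The chains together thus outweighed Cd74 there, as they also did in the macrophage-like pools and in the monocyte-like pools at 5 dpi. Plasmacytoid dendritic-like cells at 5 dpi stood apart with little H2-Eb1, at 8.89% and 9.44%, and with more H2-DMa, at 3.06% and 4.34%, than the other carrier types at that day, which had 14.4% to 23.5% H2-Eb1 and 0.345% to 2.07% H2-DMa. The hypothyroid plasmacytoid pool held 12 cells, under the minimum for a comparison, with 37 H2-Eb1 and 17 H2-DMa UMIs. The H2-DMa part of macrophage-like cells was 2.07% and 1.69% at 5 dpi and 0.631% and 0.931% at 14 dpi.

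In the 4 carrier types compared between diets at 5 dpi, H2-Aa had a larger part in the control than in the hypothyroid library. It was 25.3% against 17.3% in B-like, 30.7% against 21.2% in conventional dendritic-like, 27.2% against 21.4% in monocyte-like and 25.4% against 21.4% in macrophage-like cells. H2-Ab1 had the smaller part in the control library in all 4, from 8.81% against 11.3% in B-like to 13% against 15.6% in macrophage-like cells. In plasmacytoid dendritic-like cells, 12 of them in the hypothyroid library, H2-Aa kept this order and H2-Ab1 did not. H2-Ab1 had 76 of 686 class II UMIs in control and 39 of 392 in hypothyroid cells of that type. The same order thus ran through these 4 unlike types of a library. It was not seen in macrophage-like cells at 14 dpi, where H2-Aa made up 21.7% and 21.8% and H2-Ab1 15.6% and 16.2%.

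FAP-like, endothelial-like, mural-like, myogenic, T-like and NK-like cells also had class II UMIs after injury, in most pools mainly in few cells. In their injured pools of at least 20 cells, the 5 cells with the most class II UMIs held 28.3% to 100% of these UMIs, the least in hypothyroid FAP-like cells at 14 dpi. FAP-like cells had 3.14, 355 and 63.1 CPM in control muscle and 5.32, 152 and 49.3 CPM in hypothyroid muscle, uninjured, at 5 dpi and at 14 dpi. Without the 5 cells with the most class II UMIs, the levels were 1.58, 119 and 25.7 CPM and 0.902, 27.8 and 35.5 CPM. A class II UMI was found in 1.69%, 20.5% and 14.6% of control and in 2.56%, 28.2% and 29.1% of hypothyroid FAP-like cells, and after thinning in 0.312%, 5.43% and 4.22% and in 1.30%, 3.27% and 5.36%. The order of the diets in the unthinned shares at 5 dpi was not that of the levels.

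Endothelial-like cells had 28.7, 910 and 250 CPM in control and 42.6, 232 and 620 CPM in hypothyroid muscle. Without the top 5 cells they had 0, 39.2 and 47.1 CPM and 0, 23.5 and 84.7 CPM. Mural-like cells, the contractile cells around vessels, had 355 CPM in control and 1329 CPM in hypothyroid muscle at 14 dpi, and 34.3 and 36.2 CPM without the top 5 cells. Without the cells of a second table, 240 hypothyroid FAP-like cells at 14 dpi had 37.5 CPM, 74 endothelial-like cells 262 CPM and 15 mural-like cells 10.6 CPM on 1 UMI. The macrophage marker list stood at 401 and 3492 CPM in the same mural-like pools, at 85.4 and 960 CPM in endothelial-like cells at 5 dpi and at 377 and 866 CPM in those at 14 dpi, control and hypothyroid. Its part in these levels was not tested.

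T-like cells at 5 dpi had 2196 CPM in control and 747 CPM in hypothyroid muscle, and 1030 and 63.9 CPM without the top 5 cells. NK-like cells had 1123 and 857 CPM, and 434 and 63.3 CPM without them. Myogenic progenitor-like cells at 5 dpi had 169 and 84.6 CPM, and 12 and 17.5 CPM without them. In control muscle at 5 dpi, the make-up of class II UMIs in T-like, NK-like, FAP-like, endothelial-like and myogenic progenitor-like cells ran from 24.0% to 26.7% H2-Aa, 12.9% to 15.1% H2-Ab1, 20.2% to 21.9% H2-Eb1 and 36.6% to 40.5% Cd74. In cells of no type in that library it was 27.8%, 14.7%, 21.2% and 35.8%. The proportions were thus near to each other in types of unlike level.

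Cells of no type held a sizeable part of the class II UMIs at 5 dpi. They had 10243 CPM over 350 control cells and 4177 CPM over 338 hypothyroid cells, and 9157 and 3279 CPM without the top 5, so many of them carried the genes. A class II UMI was found in 45.4% (40.1% to 50.8%) and 43.5% (38.1% to 49.0%) of them. The conventional dendritic list summed to 374 and 239 CPM and the monocyte list to 797 and 409 CPM in these pools, against 4697 and 2843 CPM of the dendritic list in conventional dendritic-like cells.

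The genes that act with class II were read from lists set by role, and a gene was counted where both pools together had at least 20 UMIs. Of the regulators, Ciita, the class II coactivator, was highest in B-like cells with 137, 92.1 and 105 CPM (control 5 dpi, control uninjured and hypothyroid 5 dpi), stood at 36.2 to 59.0 CPM in conventional dendritic-like and monocyte-like cells, and at 3.89 to 12.3 CPM in macrophage-like cells, where it rested on 4 to 25 UMIs a pool. Its ratios of 14 over 5 dpi in macrophage-like cells were 2.17 (0.404 to 11.6) in control and 0.804 (0.240 to 2.14) in hypothyroid muscle. The control interval held 1 as well as the steps of the chains, so these UMIs were too few to place Ciita. In control macrophage-like cells 1 of 5 counted genes of the transcription list, Nfya, was higher at 14 than at 5 dpi, with 2.63 (1.37 to 5.10), and 1, Nfyc, was lower, where 8.96% of all genes were higher and 9.57% lower. In hypothyroid cells none of 6 passed in either direction, where 8.97% were higher and 4.01% lower. Both encode subunits of NF-Y, which binds the Y box.

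Of the 4 other loading genes, H2-DMb1, the beta chain partner of H2-DMa, was the only one with enough UMIs in macrophage-like cells. It had 67.8 CPM at 5 dpi and 196 CPM at 14 dpi in control and 57.0 and 281 CPM in hypothyroid cells, ratios of 2.89 (1.96 to 4.30) and 4.93 (4.22 to 5.77), so both H2-DM chains stood higher at 14 dpi. H2-Ob and H2-DMb2 were highest in B-like cells, with 299 to 526 CPM and 87.1 to 203 CPM, and at most 9.19 and 3.06 CPM in macrophage-like cells. Of the interferon gamma list, which can switch on Ciita, 0 of 6 counted genes were higher and 1, Irf8, lower at 14 than at 5 dpi in control macrophage-like cells, where 8.96% of all genes were higher and 9.57% lower.

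The endosomal genes went the other way from the class II chains in control macrophage-like cells. Of 6 genes, 5 were lower at 14 than at 5 dpi, where 9.57% of 5456 genes were lower. These were Ctss, the protease that trims the invariant chain, at 0.305 (0.274 to 0.339), Ctsl at 0.183, Lgmn at 0.244, Ctsb at 0.442 and Ctsd at 0.151, all lysosomal proteases. The reductase gene Ifi30 had 0.578 (0.471 to 0.705). In hypothyroid macrophage-like cells 1 of 6 was lower, Ctsd at 0.492 (0.473 to 0.513), where 4.01% of 9719 genes were lower, and Ctss had 0.846 (0.814 to 0.878). Between diets at 14 dpi, 2 of 6 endosomal genes passed where 5.33% of 6641 genes were higher, Ctss with 1207 against 2539 CPM (hypothyroid over control 2.10, 1.89 to 2.34) and Ctsl with 886 against 2383 CPM (2.69, 2.39 to 3.05). With all columns of the tables read, neither passed. The control 14 dpi pool is the one with the high myocyte list.

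Of the costimulation and turnover genes, Cd86, a ligand of CD28, had a ratio of 14 over 5 dpi of 2.40 (1.51 to 3.82) and Cd83, which keeps class II on the cell surface, 3.18 (2.35 to 4.32) in control macrophage-like cells. In hypothyroid cells Cd86 had 1.40 (1.13 to 1.71) and 0 of 5 counted genes of these lists passed. Of 7 class I genes read for comparison, which present internal peptides, 0 passed in control cells and 1, the class I coactivator gene Nlrc5 at 2.49 (1.60 to 3.85), in hypothyroid cells. Over all genes at 14 over 5 dpi, 8.96% were higher and 9.57% lower in control, and 8.97% higher and 4.01% lower in hypothyroid cells. H2-K1 and B2m, the class I heavy chain and its light chain, had 0.684 and 0.921 in control and 1.14 and 1.06 in hypothyroid macrophage-like cells. The numbers of higher and lower genes of all lists together in macrophage-like cells moved by at most 1 without the cells of a second table. Between diets at 5 dpi, 4.74% of 9438 genes were higher and 8.74% lower in hypothyroid macrophage-like cells. Socs1 and Cd40 were among the higher, at 2.11 (1.28 to 3.75) and 2.32 (1.52 to 3.70). Irf8, Nfyc and Cd4 were among the lower, at 0.263, 0.423 and 0.299. At 14 dpi, where 5.33% of 6641 genes were higher and 4.77% lower, Socs1 was higher, at 3.55 (1.74 to 8.43), and Nfya lower, at 0.474. With all columns read, neither Socs1 nor Cd40 passed on either day.

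The genes whose levels were most like the summed class II level were sought over the 45 pools of at least 20 cells in 14 types, by Pearson's r of log2(CPM + 1), among genes outside the marker and pathway lists. Pools of a library share depth and free RNA, so these values are descriptions. The closest were Slamf7 (0.924), Pik3ap1 (0.902), Spi1 (0.886), Plek (0.886) and Cybb (0.878), followed by Wfdc17, Trim25, Ly86, Napsa and Irf5 at 0.857 to 0.873. Spi1 encodes the myeloid and B cell transcription factor PU.1 and Cybb a subunit of the phagocyte oxidase. Within the pathway lists, Cd86 (0.912), Ctss (0.900), Cd83 (0.897), H2-DMb1 (0.813) and Lgmn (0.745) were closest, Ciita had 0.733, and Ctsl had -0.259. The 4 abundant members had r of 0.947 to 0.982 with each other and H2-DMa had 0.744 to 0.777 with them.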

How the data were processed

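The authors counted UMIs with Cell Ranger on mm39 and deposited log2(CPM + 1) values per cell from Partek Flow. UMIs were recovered from these log2 values by dividing each cell's CPM by the worth of 1 UMI in it. Of 39334018 values, 99.9% came out whole (within 0.05 UMI). Table columns fall into 1 to 3 runs of barcodes, of which the first was used (11207 of 20269 cells). Median depth was 3634 to 8055 UMIs per cell and library, and dead cells had been removed before capture. Each cell was scored over 15 marker lists (102 of 107 genes found), holding no class II gene. A cell took the list with the highest score if it had at least 2 of its markers (3 for FAPs), a score of 0.15 and a lead of 0.05. That scoring rule was set after the data were seen, and doublets were not removed. UMIs were summed per type and library, and pools of at least 20 cells were compared.

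Intervals are exact Poisson for levels, exact Clopper-Pearson for shares and exact conditional binomial for ratios. Ratios over all genes used genes with at least 20 UMIs in both pools together. The scripts (Python 3.11.15, scipy 1.17.1) were tested on simulated counts. The 5 genes and all lists were chosen with earlier results of these data known. The genes named were the 5 genes, the pathway lists and the 10 genes of most like pattern. Alternatives were other gates, all columns, other thinning depths and cells left out. Rfxank was not analysed here. A gene of the pathway lists is not reported here.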

Additional observations from a re-analysis of the deposited data

Results flagged for a closer look

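Endothelial-like cells had opposite ratios of hypothyroid over control for the 5 genes summed, 0.255 (0.199 to 0.323) at 5 dpi and 2.48 at 14 dpi, and opposite ratios of 14 over 5 dpi, 0.275 in control and 2.67 in hypothyroid muscle. With all columns of the tables read, the ratios of hypothyroid over control were 3.21 at 5 dpi and 1.77 at 14 dpi, no longer opposite. The difference between these ratios was not tested, since each condition is 1 library. At 14 dpi the ratio was 0.585 under the stricter gate and 1.05 without the cells that recur in a second table. Without the 5 cells with the most class II UMIs in each pool it was 0.598 at 5 dpi and 1.80 at 14 dpi. The 5 cells of most class II UMIs held 81.4% to 96.0% of the endothelial-like class II UMIs in the 4 injured libraries.

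The columns after the first run of each table that stand in no other table's first run held 7382 cells. They were used only in the values given with all columns read. These cells also carried class II UMIs, 2998 CPM (2982 to 3014) for the 5 genes summed. In these columns of the control 5 dpi table, 80 macrophage-like cells had 33895 CPM (33284 to 34515), against 5402 CPM in the 100 cells of its first run. The 162 macrophage-like cells of the later control 14 dpi columns had 35322 CPM, against 36414 CPM, and the 74 of the later hypothyroid 5 dpi columns had 7006 CPM, against 4883 CPM. Which condition these columns hold was not settled by the tables.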

How the results depend on the processing

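Of 112 values of 14 summed ratios under 8 other settings, 93 kept their direction and side of the 2-fold rule, 13 lost the call, 2 gained it and 4 reversed, and of 440 values of single genes 394, 31, 14 and 1 did. The causes were not tested. No paired analysis was possible because each condition is 1 library.

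With all columns of the tables read, the summed ratio of hypothyroid over control was 0.350 in macrophage-like, 0.678 in FAP-like and 3.21 in endothelial-like cells at 5 dpi, 1.77 in endothelial-like cells at 14 dpi, and over all cells 1.46 in uninjured and 1.48 in 14 dpi muscle. Summed levels were then 39311 and 40096 CPM in dendritic-like cells and 14656 (control 5 dpi), 35129 (control 14 dpi) and 5127 CPM (hypothyroid 5 dpi) in macrophage-like cells. The shares of class II UMIs were 7.88% and 8.18% in B-like cells of the uninjured tables. They were 26.5% in control dendritic-like, and 75.5% (control 14 dpi) and 23.0% (hypothyroid 5 dpi) in macrophage-like cells. All columns added to the uninjured tables also stand in the first run of an injured table. Cd74 was found in 68.6% of control 5 dpi macrophage-like cells and made up 42.5% and 41.9% of class II UMIs at 5 dpi. The numbers of pathway genes higher between diets were then 0 and 0 at 5 and 14 dpi.

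Without the cells of a second table, the endothelial-like ratio at 14 dpi was 1.05, the dendritic-like control level 39186 CPM, the macrophage-like level at hypothyroid 14 dpi 28776 CPM with 95.2% of UMIs, and 8.68% of genes were lower between diets there. Without the top 5 cells the ratios were 0.598 and 1.80 in endothelial-like and 1.56 over all uninjured cells. The levels were then 36713 and 42270 CPM in dendritic-like and 4105, 32259, 4446 and 28937 CPM in macrophage-like cells (control 5 and 14 dpi, hypothyroid 5 and 14 dpi). As a difference of mean deposited log2 values, the comparison gave 0.0045 and 0.44 in endothelial-like, -0.038 in FAP-like, 0.16 and 0.81 over all uninjured and 14 dpi cells, 0.062 for H2-Aa over all 5 dpi cells, and -2.38 for B-like cells at 5 over 0 dpi.

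With a stricter gate the endothelial-like ratio at 14 dpi was 0.585, macrophage-like levels were 38821, 5160 and 32061 CPM (control 14 dpi, hypothyroid 5 and 14 dpi), and shares were 73.7% and 40.4% in uninjured B-like, 29.4% in dendritic-like and 47.2%, 30.5% and 74.1% in macrophage-like cells. With a looser gate the control 14 dpi macrophage-like level was 37075 CPM. Without cells of high UMI count the ratios were 0.530 in endothelial-like cells at 14 dpi and 0.830 in FAP-like cells at 5 dpi, and the macrophage-like levels 5822, 35022, 5580 and 36086 CPM. The shares were then 57.9% in hypothyroid uninjured B-like, 31.3% in dendritic-like and 52.8% and 89.7% in 14 dpi macrophage-like cells. With the smallest value of a cell read as 1 UMI, dendritic-like levels were 38958 and 48062 CPM, and shares were 89.2% and 43.7% in uninjured B-like, 29.7% in control dendritic-like and 49.8% and 88.5% in 14 dpi macrophage-like cells. Thinned to 500 UMIs, Cd74 was found in 40.2% and 92.2% of hypothyroid macrophage-like cells at 5 and 14 dpi. With at least 100 UMIs a gene, 5.21% of genes were lower between diets at 5 dpi and 5.41% higher at 14 over 5 dpi in hypothyroid macrophage-like cells.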
